A study of Mus musculus with 24 samples.

Results

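The 9 genes described here carry out antigen presentation by MHC molecules. They are the class II chains H2-Aa, H2-Ab1 and H2-Eb1, the class II invariant chain Cd74, the class II loading chains H2-DMa and H2-DMb1, the class II transactivator Ciita, the class I light chain B2m and the peptide transporter subunit Tap1. Every probe whose RefSeq accession belongs to 1 of these genes was taken, which gave 10 of the 55681 probes on the array and 9 of the 21368 genes that could be named. H2-Ab1 had 2 probes and the other genes 1 each. RNA was measured in 4 tissues, namely liver, brain, heart and skeletal muscle, with 1 array for each tissue of a mouse. The mice were males, 3 WT and 3 Rap1 KI/KI, and by their animal numbers the same 6 gave every tissue. The Rap1 KI/KI mice (RAP1 MUT in the labels) carry the I312R change in both copies of the gene for RAP1, a protein of the telomere-binding shelterin complex, which was introduced with CRISPR/Cas9, and the line was backcrossed 4 times to C57BL6 mice, given as C57BL/6N in the methods. No other allele, treatment or agent is given for either genotype. WT1 and KI1 were 5 months old by the labels, and WT2, WT3, KI2 and KI3 were 2 months old. Liver and brain RNA was extracted with an RNeasy Mini kit and heart and muscle RNA with a kit for fibrous tissue, so kit and tissue cannot be told apart when a tissue of the first pair is set against a tissue of the second.

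MHC class II molecules are pairs of an alpha and a beta chain that show peptides from taken-up proteins to CD4 T cells, and they are made mainly by dendritic cells, macrophages and B cells. CD74 fills their groove until proteases trim it away, and H2-DM then exchanges the remaining fragment for a peptide. CIITA switches these genes on through the SXY module, a promoter element read by the RFX and NF-Y complexes, and interferon gamma induces CIITA in other cells. Class I molecules, made by nearly all cells, need B2M as their light chain and the TAP transporter for their peptides. Resting brain tissue holds microglia with little class II.

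The promoter letters of 4 of the genes are given before any level is compared. The RefSeq table (GRCm38.p6) held windows of 250 bases before to 50 bases after a start for 6 of the 9 genes: H2-Aa, H2-Eb1, H2-DMa, H2-DMb1, B2m and Tap1. Each of the following is the stretch of 200 bases before the start, on the strand of the gene, for H2-Aa (chr17:34287824-34288023, minus strand), H2-Eb1 (chr17:34305667-34305866, plus strand), H2-DMb1 (chr17:34152991-34153190, plus strand) and B2m (chr2:122147487-122147686, plus strand), and capitals mark matches on either strand to the Y box ATTGG and to an X box core written as CCNAGNNAC.
H2-Aa: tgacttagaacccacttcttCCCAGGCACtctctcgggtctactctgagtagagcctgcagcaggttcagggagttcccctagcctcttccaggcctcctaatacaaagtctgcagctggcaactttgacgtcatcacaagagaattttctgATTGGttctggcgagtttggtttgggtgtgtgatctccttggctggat
H2-Eb1: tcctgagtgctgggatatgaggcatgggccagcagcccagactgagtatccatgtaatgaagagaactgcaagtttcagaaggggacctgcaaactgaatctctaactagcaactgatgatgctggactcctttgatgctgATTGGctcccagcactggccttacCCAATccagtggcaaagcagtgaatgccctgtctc
H2-DMb1: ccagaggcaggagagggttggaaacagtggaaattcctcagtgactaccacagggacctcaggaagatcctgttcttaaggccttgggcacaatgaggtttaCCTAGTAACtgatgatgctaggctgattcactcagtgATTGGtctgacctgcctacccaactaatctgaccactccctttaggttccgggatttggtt
B2m: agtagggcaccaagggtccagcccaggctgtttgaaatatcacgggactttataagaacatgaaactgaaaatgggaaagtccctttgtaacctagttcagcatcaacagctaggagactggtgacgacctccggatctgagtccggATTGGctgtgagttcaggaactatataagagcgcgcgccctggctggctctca
All 4 stretches held a Y box on the strand of the gene close to the start, with its first base at -48 in H2-Aa, -59 in H2-Eb1, -61 in H2-DMb1 and -53 in B2m, and H2-Eb1 had another on the other strand at -35. H2-DMa and Tap1, which are not printed, held none at such a place, so the 4 printed genes do not stand for all 6. The share of all windows with a Y box on that strand so close to the start was not counted. Of all 32851 promoter windows of this length, 37.4% held ATTGG on either strand, so the letters alone are common. The X box core was found in 17.3% of the windows, and here at -98 in H2-DMb1, at -98 in the window of Tap1 and at -180 in H2-Aa, with 2 more after the start of H2-DMb1, at 3 and 41 on the other strand. Only exact matches were marked. H2-Eb1 holds actagcaac, which differs from the X box pattern in its first letter only and is followed by tgatgatg, as the match at -98 in H2-DMb1 is. Whether a match or a near match works as an X box was not tested. Tap1 also held a Y box on the other strand at -222. H2-DMa had 2 windows, 1 with a Y box at -198 and the other with neither motif. The interferon response element (GAAA, any 2 bases, GAAA), in 3.44% of all windows, and the NF-kappaB motif (GGG, any 2 bases, TTTCC), in 1.63%, were found in B2m only among these 6 genes, at -139 and, on the other strand, at -126. The GAS motif TTCNNNGAA, in 8.3% of all windows, was found in 0 of the 7 windows. No 2 matches overlapped.

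Levels are log2 intensities with the array's own 75th percentile set to 0, and they are compared between samples for the same probe only. The 75th percentile ranged from 470.7 to 1389 intensity units over the 24 arrays, and 56.5% to 72.7% of the probes were well above background. The tissue labels matched their markers: the summed level of 8 hepatocyte genes was 11.20 to 12.08 in the liver and at most 6.96 elsewhere, that of 8 brain genes was 8.50 to 8.81 in the brain and at most 7.75 elsewhere, that of 8 heart genes was 11.23 to 12.06 in the heart and at most 9.87 elsewhere, and that of 8 skeletal muscle genes was 11.87 to 12.29 in the muscle and at most 7.62 elsewhere. The 24 arrays were on 3 slides. Slide 1 held the 6 liver arrays and the brains of WT1 and KI1, slide 2 the other 4 brains and the hearts of WT1, KI1, WT2 and KI2, and slide 3 the hearts of WT3 and KI3 and the 6 muscle arrays. In the brain, slide and age cannot be told apart. In such bulk tissue, fewer cells of a type and less RNA per cell cannot be told apart either.

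All member probes were well above background on all 24 arrays except the Ciita probe, which was so on 19. Genes lie as follows in GRCm38.p6: H2-DMa (chr17:34119693-34139101), H2-DMb1 (chr17:34153191-34160229), Tap1 (chr17:34187556-34197225), H2-Ab1 (chr17:34263227-34269418), H2-Aa (chr17:34282744-34287823) and H2-Eb1 (chr17:34305867-34316674) follow each other in the MHC on chromosome 17. B2m (chr2:122147687-122153082), Ciita (chr16:10480014-10531064) and Cd74 on chromosome 18 lie outside it. The annotated span of H2-DMa overlaps Brd2, that of Ciita overlaps Dexi and that of B2m lies within Patl2. The place of a probe within its gene was not used here.

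**Figure D1:**
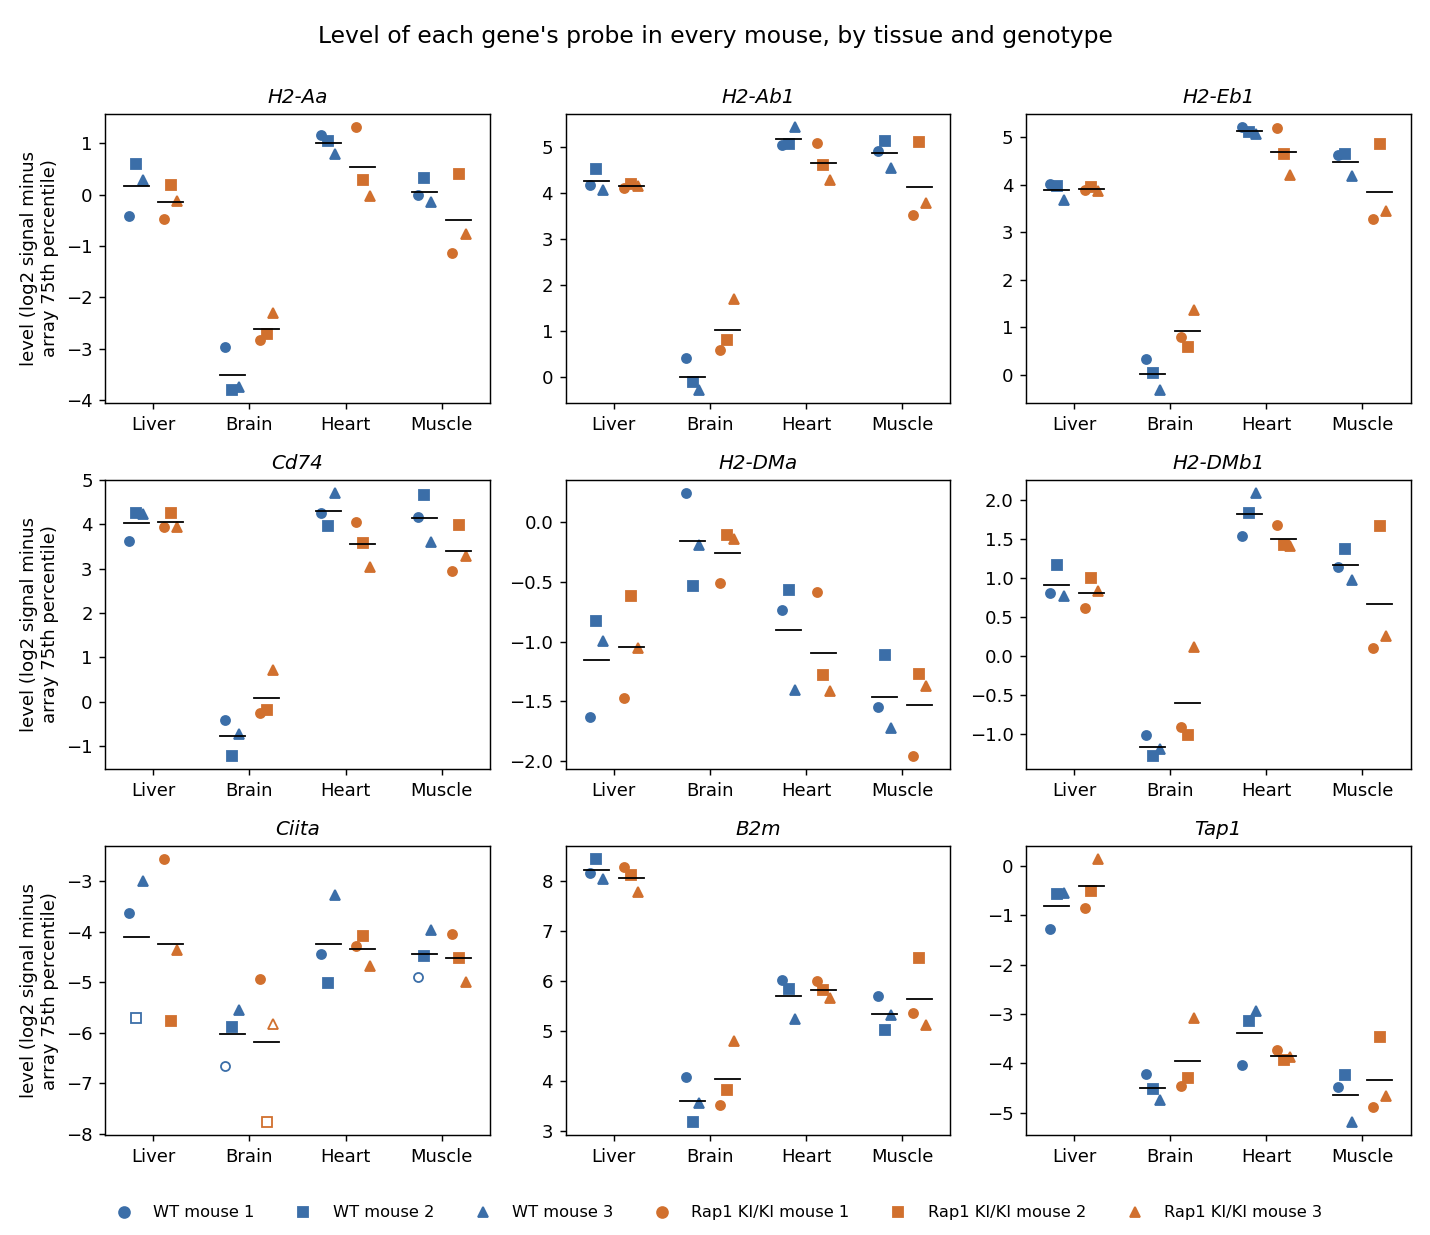
Level of each gene's probe (vertical axis, log2 intensity relative to the array's 75th percentile) in every mouse, by tissue; WT in blue, Rap1 KI/KI in orange, 1 symbol per mouse, open where the probe was not well above background, and lines for the mean of 3 mice. In the panels of H2-Aa, H2-Ab1, H2-Eb1 and Cd74 all 6 brains lie below all other samples, while H2-DMa is highest in the brain.

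The first comparison is between tissues, with both genotypes averaged over the 6 mice of each tissue. The class II chains and Cd74 were lowest in the brain, from 7.12-fold to 21.6-fold below the other tissues, and H2-DMa went the other way. Liver, heart and muscle differed far less for the class II genes, with heart the highest for the 3 chains and H2-DMb1. B2m and Tap1 were highest in the liver. Contrasts were fitted with limma on all 24 arrays and called at a Benjamini-Hochberg adjusted p under 0.05 over 42463 probes. Many probes differ between tissues, so a call is common. Of all probes, 45.6% were called higher and 33.4% lower for liver against brain, 34.4% and 32.3% for liver against heart, and 34.9% and 36.3% for liver against muscle. The shares were 27.7% and 39.9% for brain against heart, 28.7% and 41.4% for brain against muscle, and 21% and 22.4% for heart against muscle. Of the 9 genes, liver against brain gave 8 higher and 1 lower, brain against heart 1 higher and 7 lower, and brain against muscle 1 higher and 7 lower. Liver against heart gave 2 higher and 4 lower, liver against muscle 2 higher and 0 lower, and heart against muscle 4 higher and 0 lower. The median log2 difference of the 9 genes was 3.42 for the liver minus the brain, beside 0.35 for all probes, -2.54 for the brain minus the heart, beside -0.27, and -1.80 for the brain minus the muscle, beside -0.30. For the liver minus the heart it was -0.10, for the liver minus the muscle 0.26 and for the heart minus the muscle 0.50, beside -0.0028, -0.06 and -0.07 for all probes.

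H2-Aa, the alpha chain of I-A, had levels over 6 mice of -3.79 to -2.30 in the brain (median -2.89), -0.48 to 0.60 in the liver (0.03), -1.14 to 0.39 in the muscle (-0.07) and -0.03 to 1.32 in the heart (0.91). All brains lay below all samples of the other tissues, and the other 3 tissues overlapped. The brain mean was 8.36-fold below the liver mean (3.06 log2 units, SE 0.27, adjusted p = 3.81e-09) and 14.1-fold below the heart mean (3.82 log2 units, adjusted p = 2.73e-10), by limma. Heart exceeded muscle by 0.99 (SE 0.27, adjusted p = 0.00639) and liver by 0.75 (adjusted p = 0.0206), calls that were lost with slide as a block, and liver and muscle were not told apart (0.23, SE 0.27, adjusted p = 0.455).

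H2-Ab1, the beta chain of I-A, was -0.29 to 1.69 in the brain (median 0.49), 4.06 to 4.51 in the liver (4.15), 3.51 to 5.11 in the muscle (4.72) and 4.26 to 5.43 in the heart (5.05). Its brain mean lay 12.8-fold below the liver, 15.8-fold below the muscle and 21.1-fold below the heart. The second H2-Ab1 probe gave 12.4-fold, 15.8-fold and 20.6-fold. H2-Eb1, the beta chain of I-E, had the same order, with -0.31 to 1.37 in the brain (0.46), 3.68 to 4.02 in the liver (3.92), 3.27 to 4.85 in the muscle (4.40) and 4.21 to 5.22 in the heart (5.08). No brain reached any other sample for either beta chain. The heart exceeded the liver by 0.72 for H2-Ab1 (SE 0.25, limma adjusted p = 0.0164) and by 1.01 for H2-Eb1 (SE 0.24, adjusted p = 0.000929). With slide as a block the call was lost for H2-Ab1 and kept for H2-Eb1. Against the muscle the heart was 0.73 higher for H2-Eb1 (SE 0.24, adjusted p = 0.0166) and 0.42 higher for H2-Ab1, which missed the threshold (SE 0.25, adjusted p = 0.184).

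Cd74, the invariant chain, was -1.22 to 0.73 in the brain (median -0.33), 2.96 to 4.66 in the muscle (3.79), 3.62 to 4.25 in the livers (4.09) and 3.03 to 4.71 in the heart (4.01). The brain mean was 20.9-fold below the liver (4.38 log2 units, SE 0.25, limma adjusted p = 4.95e-12), 19.3-fold below the heart and 17.4-fold below the muscle. The other 3 tissues overlapped throughout, and none of their 3 contrasts passed the threshold (log2 differences 0.11 to 0.26, adjusted p = 0.357 to 0.721). The direction of liver over heart turned to -0.33 with quantile normalization.

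The loading chains H2-DMa and H2-DMb1 form a single heterodimer, but their probes ran in opposite directions between tissues. H2-DMb1 was -1.27 to 0.12 in the brain (median -1.004), 0.10 to 1.67 in the muscle (1.07), 0.62 to 1.17 in the livers (0.82) and 1.41 to 2.09 in the heart (1.61). Its brain mean was 3.35-fold below the liver, 3.48-fold below the muscle and 5.81-fold below the heart, so it followed the class II chains with a smaller range. KI3 alone among the brains reached the level of a muscle, that of KI1 at 0.10. All 6 brains lay above all samples of the other tissues for H2-DMa, which was -0.53 to 0.25 in the brain (-0.17), -1.63 to -0.62 in the liver (-1.02), -1.42 to -0.57 in the heart (-1.01) and -1.96 to -1.11 in the muscle (-1.46). It was 1.86-fold higher in the brain than in the liver (0.89 log2 units, SE 0.22, limma adjusted p = 0.00124), 1.73-fold higher than in the heart (0.79, adjusted p = 0.0041) and 2.45-fold higher than in the muscle (1.29, adjusted p = 3.83e-05). Liver, heart and muscle were not told apart for H2-DMa (adjusted p = 0.0772 to 0.702). Within slide 2, the log2 difference of brain over heart was 0.55, with an adjusted p of 0.0626. The probes of Brd2, whose span overlaps that of H2-DMa, had means in liver, brain, heart and muscle of -3.02, -2.86, -2.81 and -2.73 for the first, and of 4.73, 4.20, 4.20 and 4.35 for the second, and neither was highest in the brain. Whether the H2-DMa probe binds another transcript was not tested.

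Ciita, the transactivator, was measured close to background, since its probe was well above background in 5 of 6 livers, 3 of 6 brains, 6 of 6 hearts and 5 of 6 muscles. It was -7.77 to -4.95 in the brain (median -5.86), -5.78 to -2.56 in the liver (-3.99), -4.51 as median in the muscle (-5.00 to -3.96) and -4.37 in the heart (-5.01 to -3.28). Brain was 3.82-fold below liver (1.93 log2 units, SE 0.55, limma adjusted p = 0.00347), 3.51-fold below heart (adjusted p = 0.00683) and 3.08-fold below muscle (adjusted p = 0.0132), and its other 3 contrasts did not pass (adjusted p = 0.624 to 0.855). Signals near background make these differences less firm than those of the class II chains. With slide as a block, brain and liver differed by 1.63 (adjusted p = 0.0811).

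The class I genes had another order. B2m, the light chain of class I molecules, was 7.77 to 8.44 in the liver (median 8.15), 5.23 to 6.02 in the heart (5.83), 5.02 to 6.46 in the muscle (5.34) and 3.17 to 4.80 in the brain (3.68). No liver overlapped another tissue, and no brain overlapped another tissue. The liver mean was 5.20-fold above the heart, 6.24-fold above the muscle and 19.9-fold above the brain (limma adjusted p at most 7.77e-08), and the brain lay 3.19-fold below the muscle and 3.83-fold below the heart. Heart and muscle were not told apart (0.26, SE 0.25, adjusted p = 0.424). Tap1, a subunit of the peptide transporter, was -1.28 to 0.14 in the liver (-0.56), -4.04 to -2.94 in the heart (-3.79), -4.75 to -3.09 in the brain (-4.37) and -5.19 to -3.46 in the muscle (-4.57). The liver mean was 8.05-fold above the heart, 12.3-fold above the brain and 14.8-fold above the muscle. Outside the liver the Tap1 probe was dim, with 14.1 to 45.7 intensity units in the muscle, though well above background. The size of these folds is therefore less firm. Brain and muscle were not told apart (0.27, SE 0.29, adjusted p = 0.429), and with normexp background correction this difference turned to -0.47 (adjusted p = 0.0184). Heart exceeded muscle by 0.88 (SE 0.29, adjusted p = 0.021), a difference that was 0.00021 with normexp.

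**Figure D2:**
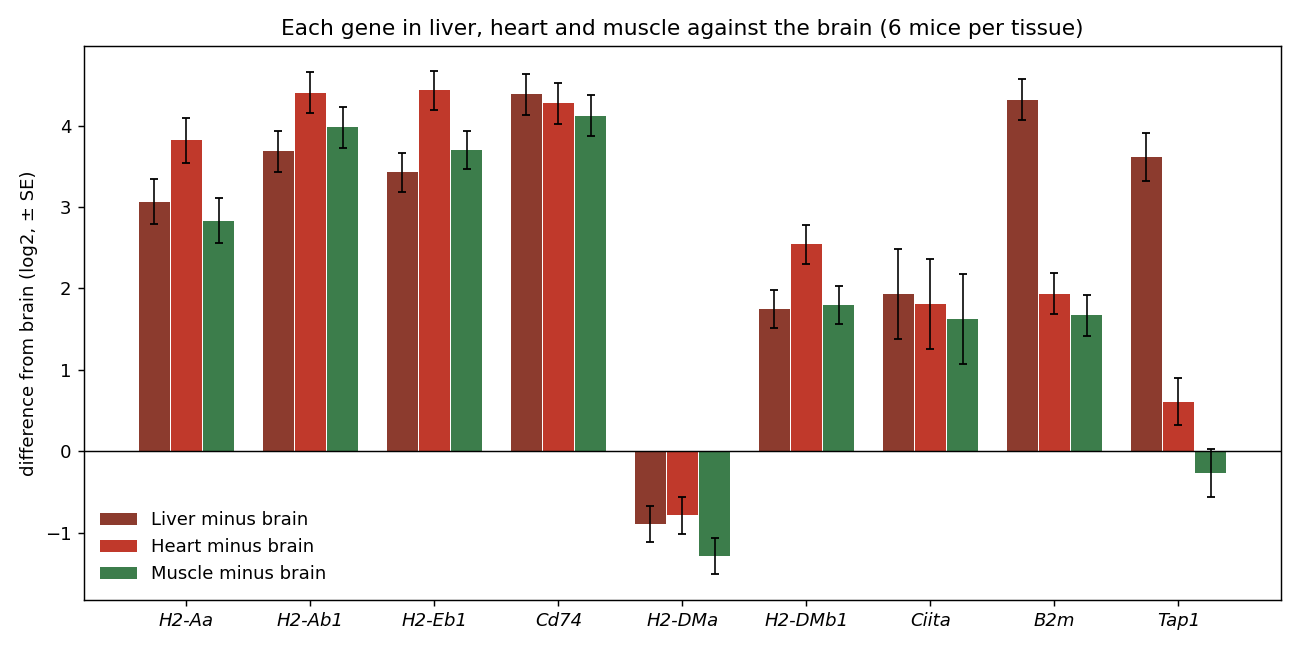
Log2 difference of each gene's level in liver, heart and muscle from the brain (vertical axis, with the limma SE as error bars), 6 mice per tissue and genotypes averaged. H2-Aa, H2-Ab1, H2-Eb1 and Cd74 stand 2.83 to 4.43 above the brain in all 3 tissues, H2-DMa lies 0.79 to 1.29 below it, and B2m and Tap1 are tallest in the liver.

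The 4 calls of heart over muscle were lost with slide as a block. No slide held livers together with hearts or muscles, so slide and tissue are largely tied. An effect of the slide and a loss of precision cannot be told apart here. Without the block, the difference was 0.74 for H2-DMb1 and 0.88 for Tap1, no larger than with it. With slide as a block, and within slide 3, which holds 2 hearts and 6 muscles, the differences of H2-Aa (0.60), H2-Eb1 (0.47), H2-DMb1 (0.83) and Tap1 (1.08) had the same sign and 0 of the 9 genes were called. Without KI1 0 were called, and without WT3 1 was. The calls of liver over heart went from 6 to 3 with slide as a block, where those of H2-Aa (-1.19, adjusted p = 0.0675), H2-Ab1 (-0.73, adjusted p = 0.253) and H2-DMb1 (-0.63, adjusted p = 0.289) were lost. Those that set the brain against another tissue were 8 or 9 of 9 with each mouse left out. With slide as a block they were 8 for liver over brain, without Ciita, 7 for brain over heart, without H2-DMa (0.55, adjusted p = 0.0742), and 6 for brain over muscle, without H2-DMa (0.64, adjusted p = 0.187) and Ciita (-1.29, adjusted p = 0.321).

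Markers of cells that make class II molecules, and separately those of endothelial cells, also differed between tissues. The summed level of 12 macrophage and microglia genes was 5.72 to 7.24 in the brain, 6.07 to 6.97 in the liver, 5.998 to 6.42 in the heart and 4.12 to 5.44 in the muscle. The brain, lowest for class II, was thus not lowest for this sum, in which the brightest gene weighs heavily. Single genes of the list differed. Of 12 tested, liver against brain gave 7 called higher and 1 lower, beside 45.6% and 33.4% of all probes. Brain against heart gave 2 and 5, beside 27.7% and 39.9%, and brain against muscle 6 and 3, beside 28.7% and 41.4%. Cd163, a macrophage scavenger receptor, was well above background on 0 of 6 brain arrays. The sum of 8 B cell genes was lowest in the brain, where 2 to 4 of them were not well above background on each array, at -1.87 to -1.07, beside -1.26 to 0.22 in the muscle, 0.48 to 1.06 in the livers and 1.26 to 2.51 in the hearts. The sum of 6 endothelial genes was 2.44 to 4.10 in the brain, 3.85 to 4.12 in the liver, 4.74 to 5.49 in the muscle and 6.07 to 6.65 in the heart. The sum of 10 dendritic cell genes was 5.87 to 7.53 over all tissues, but its brightest gene largely sets this sum, and single genes of the list differed. Of 9 tested, liver against brain gave 6 called higher and 1 lower, beside 45.6% and 33.4% of all probes. Brain against heart gave 1 and 6, beside 27.7% and 39.9%, and brain against muscle 2 and 6, beside 28.7% and 41.4%. The part of these cells in the tissue differences was not tested.

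The rest of the pathway was read from written lists, without the 9 genes. Of 21 other genes of class I molecules and their loading, liver against brain gave 19 calls higher and 0 lower. Liver against heart gave 15 and 3, beside 34.4% and 32.3% of all probes, and brain against heart 0 and 19, beside 27.7% and 39.9%. The median log2 difference of these 21 genes was 3.54 for the liver minus the brain, where 45.6% of all probes were called higher and 33.4% lower. Of 10 other genes of class II loading, among them proteases and H2-DO chains, liver against brain gave 5 higher and 2 lower, with a median of 0.76. Of 9 other regulators of class II transcription, such as the RFX and NF-Y subunits, 4 were called higher and 2 lower, with a median of 0.32, and the shares of higher calls in these last 2 lists lie near that of all probes. Of 11 interferon gamma pathway genes, liver against brain gave 9 higher and 1 lower, and brain against muscle 1 and 9, beside 28.7% and 41.4% of all probes. Of 5 co-stimulation genes that could be tested, brain against heart gave 0 higher and 5 lower, beside 27.7% and 39.9% of all probes.

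The members can also be set against each other across the 24 arrays. Pearson's r of their levels was 0.96 to 0.99 among H2-Aa, H2-Ab1, H2-Eb1 and Cd74, 0.92 to 0.97 between these and H2-DMb1, and 0.85 between B2m and Tap1. H2-DMa had r of -0.65 to -0.51 with the class II chains and Cd74. After the mean of each tissue and genotype was taken away, H2-DMa had r of 0.84 with H2-Aa, 0.47 with H2-Ab1, 0.45 with H2-Eb1 and 0.58 with Cd74, and the class II chains had 0.79 to 0.92 with each other. Ciita had r of 0.56 to 0.65 with the class II chains and Cd74 for levels, and of -0.35 to -0.05 after that step. Its probe lay close to background, well above it on 19 of the 24 arrays, so its values of r are less firm. These values describe 24 arrays of 6 mice, which share mice, slides and the scaling.

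Among 18302 other named genes, the 5 whose levels were most like the mean of H2-Aa, H2-Ab1, H2-Eb1 and Cd74 over the 24 arrays were Ccl24 (r of 0.97), Clec4b1 (0.97), B4galt1 (0.97), Gstm2 (0.97) and Folr2 (0.97). After the mean of each tissue and genotype was taken away, they were Clec4a1 (0.86), Ccl6 (0.86), Cd14 (0.84), Fcgrt (0.84) and Fcer1g (0.83). CD14 is a co-receptor for lipopolysaccharide on macrophages, and FCER1G is the signalling chain shared by Fc receptors.

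The second comparison, between Rap1 KI/KI and WT mice within each tissue, asks whether the knock-in changes these genes. No probe of any gene on the array passed an adjusted p under 0.05 in any tissue by limma (0% of 35240 liver, 37836 brain, 34848 heart and 32382 muscle probes), so none of the differences that follow is a call. In the brain 7 of the 9 genes had higher means in the Rap1 KI/KI mice, with a median log2 difference of 0.56, beside -0.05 over all probes. In the heart 8 of 9 and in the muscle 7 of 9 had lower means, with medians of -0.45 and -0.49, beside -0.02 and -0.07. In the liver 4 were higher and 5 lower, with a median of -0.10, beside -0.01.

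In the brain, H2-Aa was -2.96 in WT1, -3.79 in WT2 and -3.74 in WT3, and -2.83 in KI1, -2.71 in KI2 and -2.30 in KI3. H2-Ab1 was 0.40, -0.12 and -0.29 in WT1 to WT3, and 0.58, 0.79 and 1.69 in KI1 to KI3. All 3 Rap1 KI/KI brains lay above all 3 WT brains for both I-A chains, and WT1 was the WT brain nearest to them. H2-Eb1 was 0.34, 0.05 and -0.31 in WT1 to WT3, and 0.79, 0.59 and 1.37 in KI1 to KI3. Cd74 was -0.41, -1.22 and -0.72 in WT1 to WT3, and -0.26, -0.19 and 0.73 in KI1 to KI3. H2-DMb1 was -1.01, -1.27 and -1.18 in WT1 to WT3, and -0.90, -1.0005 and 0.12 in KI1 to KI3. These 3 genes were separated too, H2-DMb1 narrowly and with KI3 far above the others. The differences were 0.88 for H2-Aa (SE 0.29), 1.02 for H2-Ab1 (SE 0.35), 0.89 for H2-Eb1 (SE 0.28), 0.87 for Cd74 (SE 0.35) and 0.56 for H2-DMb1 (SE 0.33), which are 1.48-fold to 2.03-fold. The limma adjusted p was 1.00 for each. The second H2-Ab1 probe had 1.04 (SE 0.31).

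So 4 of the 9 genes had an unadjusted p under 0.05 with a higher mean and 0 with a lower mean in the brain, where 1.11% of all probes were higher and 1.51% lower at that level, and 5 of 9 did not overlap between the genotypes, as 7.74% of all probes did not. Since these genes vary together across mice, the counts are not independent. B2m was 4.08, 3.17 and 3.55 in the WT brains and 3.52, 3.81 and 4.80 in KI1 to KI3 (difference 0.45, SE 0.40). Tap1 was -4.22, -4.52 and -4.75 in the WT brains and -4.45, -4.29 and -3.09 in KI1 to KI3 (0.55, SE 0.39). Both overlapped between the genotypes, with KI3 the highest. H2-DMa (-0.10, SE 0.26) and Ciita (-0.15, SE 0.73, with 2 WT and 1 Rap1 KI/KI brain well above background) had slightly lower means.

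The brain difference was smaller on slide 1, which holds the 5-month-old pair WT1 and KI1, than on slide 2. H2-Aa differed by 0.12, H2-Ab1 by 0.18, H2-Eb1 by 0.46 and Cd74 by 0.15 on slide 1, with 1 mouse per genotype, and by 1.26, 1.44, 1.11 and 1.23 on slide 2, with 2 per genotype. The sign was the same on both slides for these 4 genes. Without KI3, 2 of the 9 genes had an unadjusted p under 0.05, without WT2 1 had and without WT3 0 had, with H2-Ab1 at 0.68 without KI3.

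Most macrophage and microglia genes had higher means in the Rap1 KI/KI brains, but only KI3 had a summed level above those of the WT brains. Their summed level was 6.14, 5.72 and 5.84 in WT1 to WT3, and 5.77, 6.03 and 7.24 in KI1 to KI3. Of the 11 genes tested, 10 had higher means in the Rap1 KI/KI brains, with a median difference of 0.58 and 0 with an unadjusted p under 0.05. KI3 was the highest brain for this sum and for class II, while KI1 had a lower sum than WT1 and WT3 and higher class II levels than both. The 5 leukocyte genes also all had higher means (median 0.52), and the endothelial sum was 2.44 to 3.03 in the WT brains, 3.07 in KI1, 3.05 in KI2 and 4.10 in KI3. The 6 endothelial genes were split, 3 with higher and 3 with lower means (median 0.05), with Vwf at 0.76 (SE 0.42) and Pecam1 at -0.19 (SE 0.17). All 7 neutrophil genes had lower means (median -0.37), and the 8 dendritic cell genes tested were split, 4 higher and 4 lower. The part of these cells in the brain difference was not tested.

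**Figure D3:**
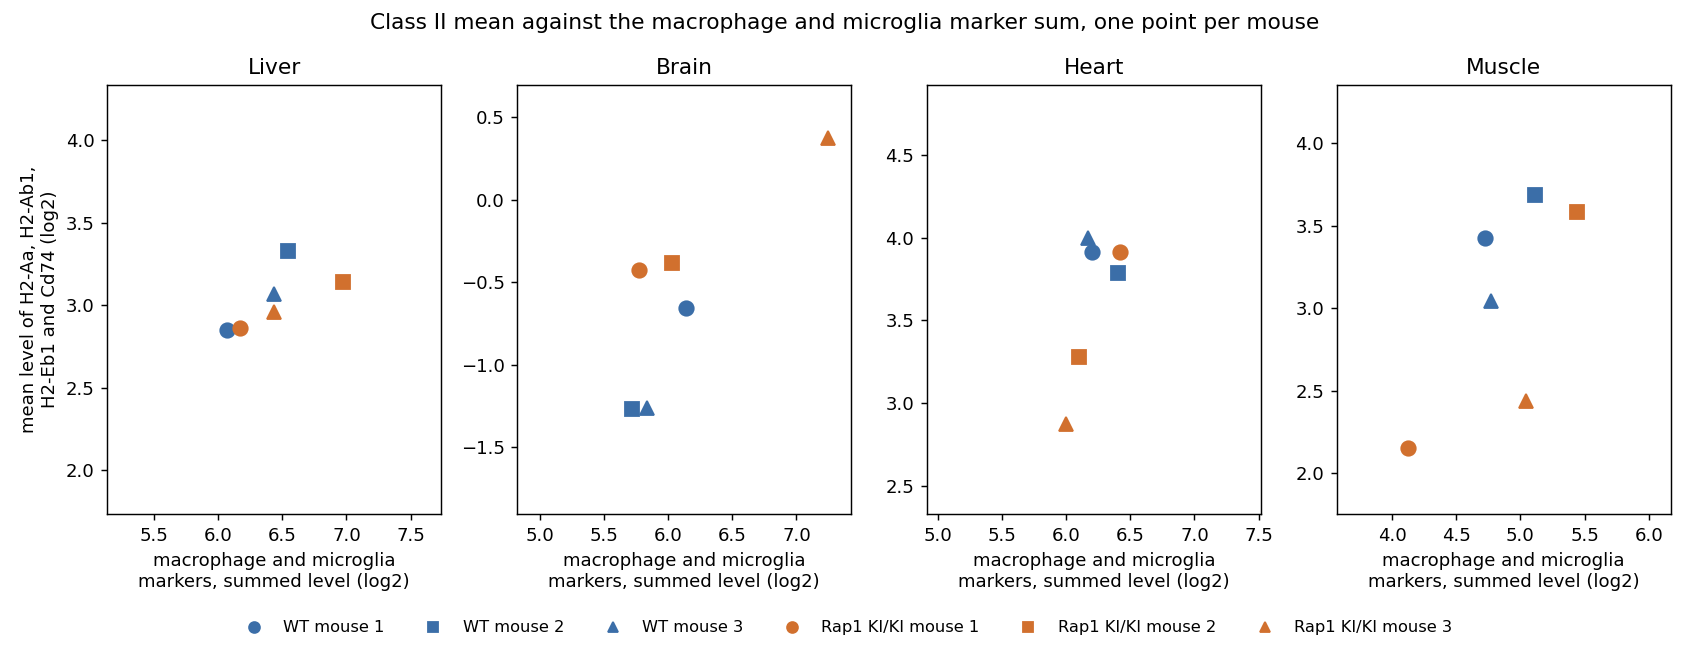
Mean level of H2-Aa, H2-Ab1, H2-Eb1 and Cd74 (vertical axis, log2) against the summed level of 12 macrophage and microglia genes (horizontal axis, log2), 1 point per mouse, with a panel per tissue and axes of equal span. In the brain KI3 stands at 0.37 and 7.24, while KI1 and KI2 lie above the WT brains in class II at marker sums of 5.77 and 6.03, within the WT range of 5.72 to 6.14.

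In the heart, Cd74 had the largest difference of the 9 genes, at -0.74 (SE 0.33, limma adjusted p = 0.646). Cd74 was 4.25, 3.95 and 4.71 in WT1 to WT3, and 4.06, 3.58 and 3.03 in KI1 to KI3. H2-Ab1 was 5.04, 5.05 and 5.43 in WT1 to WT3, and 5.09, 4.60 and 4.26 in KI1 to KI3 (difference -0.53, SE 0.27), and its second probe, with all Rap1 KI/KI hearts below all WT hearts, had -0.49 (SE 0.25). KI1 lay within or above the WT hearts and KI3 was the lowest for H2-Aa, H2-Ab1, H2-Eb1 and Cd74. H2-Aa differed by -0.47 (SE 0.37), H2-Eb1 by -0.45 (SE 0.28), Tap1 by -0.46 (SE 0.32), H2-DMb1 by -0.31 (SE 0.23), H2-DMa by -0.19 (SE 0.33), Ciita by -0.10 (SE 0.45) and B2m by 0.13 (SE 0.26). At an unadjusted p under 0.05 0 of the 9 genes passed, beside 5.09% of all probes higher and 2.42% lower, and 0 of the 9 genes were separated by their representing probe, beside 14.7% of all probes. Without KI1 4 of the 9 genes had an unadjusted p under 0.05, with Cd74 at -0.997. Cd74 differed by -0.28 on slide 2 and by -1.68 on slide 3, which holds 1 heart per genotype. The adipocyte marker sum lay between 7.86 and 7.96 in WT and between 8.17 and 9.40 in Rap1 KI/KI mice. The single adipocyte genes differed by more than this sum, since all 7 tested had higher means in the Rap1 KI/KI hearts (median 3.67). Of these 7, 5 had an unadjusted p under 0.05 by limma, beside 5.09% of all probes higher. The endothelial genes had lower means in 5 of 6 (median -0.44). Of 7 B cell genes tested in the heart, 6 had higher means (median 0.46), with Ms4a1 at 1.16 (SE 0.39), and of 12 macrophage and microglia genes 5 had higher and 7 lower means (median -0.03). Their part was not tested.

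In the muscle, the class II genes had lower means in the Rap1 KI/KI mice, from KI1 and KI3. H2-Ab1 was 4.91, 5.11 and 4.53 in WT1 to WT3, and 3.51, 5.09 and 3.77 in KI1 to KI3 (difference -0.72, SE 0.43, limma adjusted p = 0.939). Cd74 was 4.15, 4.66 and 3.61 in WT1 to WT3, and 2.96, 3.98 and 3.29 in KI1 to KI3 (-0.73, SE 0.36). KI2 lay among the WT muscles for both genes, and KI1 and KI3 below all of them. H2-Eb1 differed by -0.62 (SE 0.43), H2-Aa by -0.56 (SE 0.40) and H2-DMb1 by -0.49 (SE 0.42), and B2m by 0.30 (SE 0.39) and Tap1 by 0.30 (SE 0.43). At an unadjusted p under 0.05 0 of the 9 genes passed, beside 1.44% of all probes higher and 1.04% lower, and 0 of 9 were separated, beside 6.45%. Without KI2 5 of the 9 genes had an unadjusted p under 0.05, with H2-Ab1 at -1.21. The neutrophil marker sum was 0.61 to 1.92 in the WT muscles and 6.54 in KI1, 1.78 in KI2 and 3.77 in KI3, so it was highest in the mice with the lowest class II levels. The macrophage and microglia sum was 4.72 to 5.11 in the WT muscles, 4.12 in KI1, 5.44 in KI2 and 5.05 in KI3. The 8 adipocyte genes all had higher means in the Rap1 KI/KI muscles (median 0.94), with 0 under an unadjusted p of 0.05. The part of these cells was not tested.

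In the liver, the 9 genes differed by -0.30 to 0.40, with 0 below an unadjusted p of 0.05, beside 1.25% of all probes higher and 0.883% lower, and 0 separated, beside 5.85%. H2-Eb1 (0.02, SE 0.19) and Cd74 (0.0045, SE 0.24) had the smallest differences. H2-Eb1 was 4.01, 3.96 and 3.68 in WT1 to WT3, and 3.90, 3.95 and 3.87 in KI1 to KI3. Tap1 had the largest, at 0.40 (SE 0.33), with -1.28, -0.57 and -0.55 in WT1 to WT3, and -0.84, -0.50 and 0.14 in KI1 to KI3. The genotypes overlapped for all 9 genes.

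**Figure D4:**
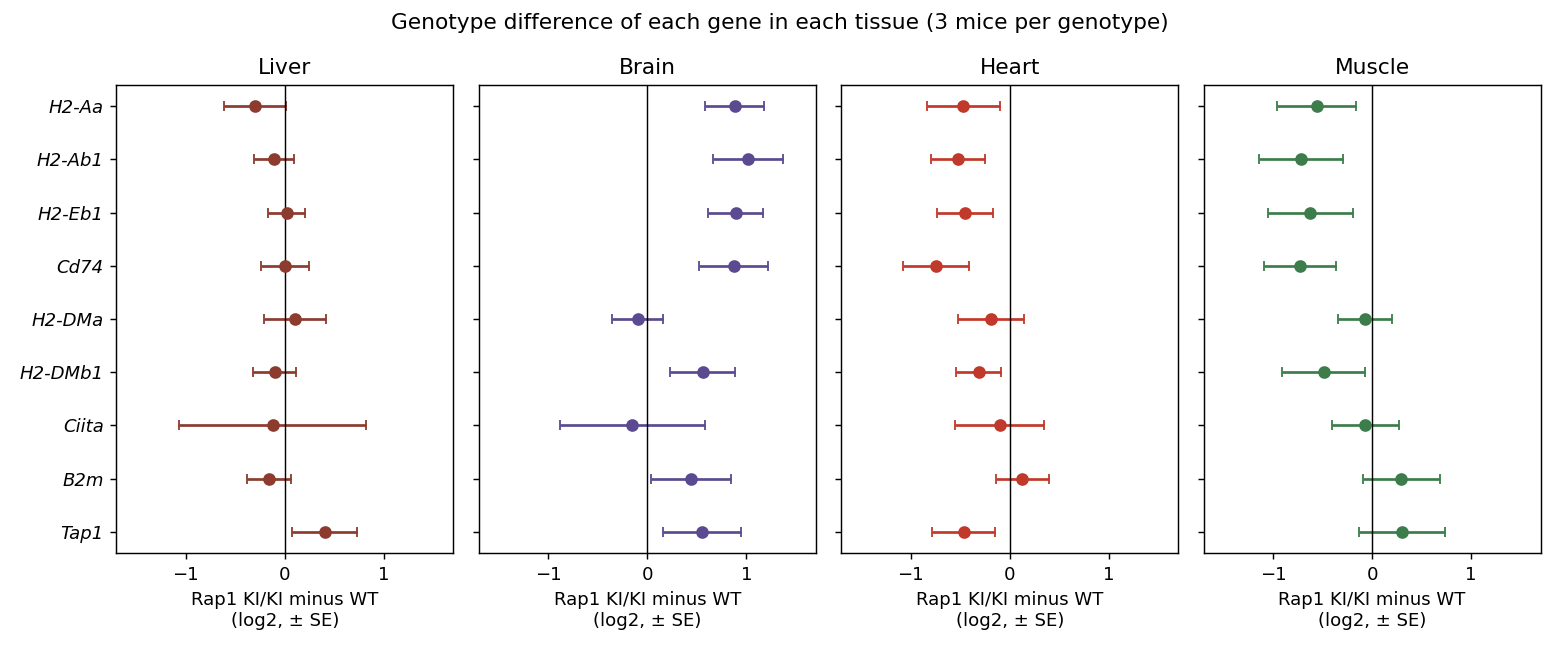
Rap1 KI/KI minus WT difference of each gene (horizontal axis, log2, with the limma SE as error bars) with a panel per tissue, 3 mice per genotype. H2-Aa, H2-Ab1, H2-Eb1 and Cd74 lie at 0.87 to 1.02 in the brain and at -0.74 to -0.45 in the heart and the muscle, and none of these differences passed an adjusted p under 0.05.

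Whether the genotype difference varied among the 4 tissues was tested with a genotype by tissue F test in limma on all 24 arrays. Of all probes, 0% passed an adjusted p under 0.05 and 2.93% an unadjusted p under 0.05. Among the 9 genes, H2-Ab1 (unadjusted p = 0.0114), Cd74 (0.014) and H2-Eb1 (0.0209) were under 0.05 and H2-Aa (0.0555) was not, and the adjusted p was 1.00 for each. The mean level of the 3 class II chains and Cd74, relative to the WT mean of the tissue, was 0.63, 0.68 and 1.43 in the brains of KI1 to KI3, 0.01, -0.62 and -1.03 in their hearts, and -1.23, 0.20 and -0.95 in their muscles. KI3 was thus the highest brain and the lowest heart among the Rap1 KI/KI mice.

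The other genes of the pathway showed the same absence of calls, with 0 at an adjusted p under 0.05 by limma in any tissue. In the brain, 9 of 10 other class II loading genes and 17 of 21 other class I genes had higher means, with medians of 0.39 and 0.33, and 1 of these 31 had an unadjusted p under 0.05, beside 1.11% of all probes higher and 1.51% lower. That gene was Ctsl, which encodes a lysosomal protease that trims CD74, with 0.55 (SE 0.22). Next by p were H2-Ob, a chain of the H2-DM inhibitor H2-DO (0.39, SE 0.19), Cd274, which encodes PD-L1 (0.62, SE 0.31), Ifngr1, an interferon gamma receptor chain (0.49, SE 0.24), and the class I heavy chain H2-D1 (0.67, SE 0.35). Of 9 interferon gamma pathway genes 7 had higher means in the brain (median 0.22), and of 9 other regulators of class II transcription 5 did (0.01).

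In the heart, 18 of 21 other class I genes had lower means (median -0.27), with Psme1, a proteasome activator subunit, at -0.57 (SE 0.24). Cd1d1, a class I-like molecule that shows lipids, had 1.28 (SE 0.45), and these 2 genes were under an unadjusted p of 0.05, beside 5.09% of all probes higher and 2.42% lower. The immunoproteasome subunits Psmb10 and Psmb9 had -0.64 (SE 0.27) and -0.43 (SE 0.20), and Ifngr2 -0.60 (SE 0.28). The other class II loading genes were split, 5 higher and 5 lower. In the muscle, genes with the smallest p included Rfxank, a subunit of RFX (-0.51, SE 0.27), H2-Oa (-0.50, SE 0.30), Ifngr2 (-0.29, SE 0.19) and Irf8 (-0.28, SE 0.20). There, 7 of 8 other class II regulators had lower means (median -0.17), with 0 under an unadjusted p of 0.05. Of all muscle probes, only 39.6% had a higher mean in the Rap1 KI/KI mice. In the liver the smallest p belonged to Ifi30, a lysosomal thiol reductase (0.46, SE 0.25), Cd80 (-0.36, SE 0.22), Canx (-0.32, SE 0.20), Ifngr1 (-0.38, SE 0.26) and Ifngr2 (0.31, SE 0.22).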

How the data were processed

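RNA of 4 tissues was measured in 6 male mice, 3 per genotype, on 24 Agilent arrays with 1 color. The intensity values are the processed signals that the authors deposited as written by Feature Extraction 12.0.3.1. The authors' deposited series-wide values are a score, the z-score of an array's log10 signals, since recomputed z-scores lay within 0.005 of them on all 24 arrays. A further normalization or test for the arrays is not given in the sources used here.

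Control spots and outlier-flagged spots were dropped, log2 signals were averaged over the spots of a probe, and each array's 75th percentile over probes was subtracted. Accessions in the RefSeq annotation of GRCm38.p6 named 28331 of 55681 probes. The probe with the highest mean over the 24 arrays represents a gene. Within a tissue, probes well above background on 3 or more of its 6 arrays were tested. The fits of all 24 arrays took the union of these probes over the tissues. Genotypes were compared within each tissue, and tissues and the genotype by tissue interaction on all 24 arrays with 8 group means, by limma 3.58.1 in R 4.3.3 (two-sided, Benjamini-Hochberg adjustment over all tested probes), with the data.table package, version 1.17.8, and statmod 1.5.0. The procedures were tested on simulated data. A summed marker level is the log2 of the sum of the scaled signals of the listed genes.

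The animal number in the labels pairs the samples, because the same animal gave all 4 tissues, and the tissue contrasts and interaction were also fitted with the mouse as a replicate block. Over 36 pairs of tissues of the same mouse, the correlation of deviations from the group mean was -0.22 to 0.26 (median 0.05, 42322 probes), and the consensus correlation was 0.026. Alternatives tried were quantile normalization, a normexp correction of the median signals (offset 50), the authors' z-scores, other filters and probe choices, each mouse left out, WT mice only, and age or slide as a block or within slides. The genes, the lists and the rule for named genes (all 9 members; the 5 other pathway genes with the smallest p per tissue; the 5 most alike; marker sums, whose 2 brightest genes the rule also names but which are not given, since levels of different probes are not compared) were chosen with earlier results of these data known. Trac, Psme2, H2-Ea and Ly6g had no named probe. A gene that this rule names in the muscle is not reported here. The number of arrays limits the precision.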

Additional observations from a re-analysis of the deposited data

Results flagged for a closer look

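A sample far from the others was looked for among the 6 mice of each tissue, both genotypes together, since groups of 3 are too small. Over 10 probes and 4 tissues, 4 of 40 sets had a gap beyond Dixon's critical value for 6 samples, where chance gives about 1 in 20. The sets share samples and hold genes that vary together, so they are not independent. All 4 gaps came from the WT2 liver or the KI3 brain. In the liver, WT2 was the highest for both probes of H2-Ab1, with a gap of 0.722 and 0.864 of the whole range, at levels of 4.51 and 4.30. In the brain, KI3 was the highest for H2-DMb1, with a gap of 0.73 and a level of 0.12 above the next brain at -0.90, and for Tap1, with a gap of 0.682 and a level of -3.09. KI3 was also the brain with the highest macrophage and microglia sum (7.24) and endothelial sum (4.10), the latter with 3 of its 6 genes higher and 3 lower in the Rap1 KI/KI brains (median 0.05), and the part of these cells was not tested.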

How the results depend on the processing

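With the mouse as a replicate block, the tissue contrasts had the same 9, 6, 2, 8, 8 and 4 calls of members in the order liver over brain, heart and muscle, brain over heart and muscle, and heart over muscle, and the block changed no other call. Under all alternatives 545 values of the members' genotype differences held and 29 had another sign than the value reported. The other 17, all from fits within slides, moved by more than the spread between replicates. Only values within slides, which had no adjusted p, were judged by that spread. Any other value held if it kept its sign and its side of the threshold for a call. No member was called in the reported genotype comparisons, so holding in this sense says little about the size of a difference. Of the tissue differences 764 held, 24 had another sign, 35 lost a call and 8 gained one. For H2-Aa, H2-Ab1, H2-Eb1 and Cd74 the sign held in all 68 alternative values in the brain (0.12 to 1.44), all 68 in the heart (-1.68 to -0.19) and all 56 in the muscle (-1.21 to -0.24), and in 51 of 56 in the liver (-0.58 to 0.11), the authors' z-scores aside. Many of these values could not change sign. In this balanced design other filters, the fits of all 24 arrays, and age or slide as a block leave a genotype difference as it is. H2-Ab1 in the brain, for example, was 1.02 with either block, as without.

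Quantile normalization called 1 probe in the brain, and turned B2m in the liver to 0.021, Ciita in the brain to 0.044, H2-DMa and Cd74 for liver over heart to 0.048 and -0.33, and Cd74 for liver over muscle to -0.040. With normexp 1 member had an unadjusted p under 0.05 in the heart, and Ciita turned to -0.21 for liver over muscle and -0.32 for heart over muscle, and Tap1 to -0.47 for brain over muscle. In the authors' z-score units the liver differences turned to -0.0067 for H2-Eb1, -0.01 for Cd74 and 0.0033 for Ciita, and Cd74 to -0.035 for liver over heart. With slide as a block 3 members were called for liver over heart and 0 for heart over muscle (0 also within slide 3), Ciita turned to -0.17 for liver over heart, H2-Aa, H2-DMa and H2-DMb1 to -0.58, -0.33 and 0.20 for liver over muscle, and B2m to -0.050 for heart over muscle, as within slide 3. In WT mice only, Cd74 turned to -0.27 for liver over heart and -0.10 for liver over muscle. The cause was not tested.

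With each mouse left out, 0 to 4 members had an unadjusted p under 0.05 in the brain and the heart, 0 to 5 in the muscle and 0 to 5 for genotype by tissue, where 0 to 4 probes were called (4 without WT1), and 0 to 5 members were called for heart over muscle. Differences that changed sign when a mouse was left out ranged, in the liver, from -0.20 to 0.022 for H2-Ab1, -0.086 to 0.082 for H2-Eb1, -0.14 to 0.31 for H2-DMa, -0.19 to 0.022 for H2-DMb1, -0.20 to 0.11 for Cd74 and -0.96 to 0.65 for Ciita, in the brain from -0.28 to 0.11 for H2-DMa and -0.77 to 0.64 for Ciita, in the heart from -0.48 to 0.38 for Ciita and -0.10 to 0.29 for B2m, and in the muscle from -0.20 to 0.14 for H2-DMa, -0.31 to 0.18 for Ciita, -0.11 to 0.56 for B2m and -0.14 to 0.58 for Tap1. For liver over heart H2-DMa ranged from -0.27 to 0.13, Cd74 from -0.031 to 0.26 and Ciita from -0.28 to 0.58, for liver over muscle H2-DMb1 from -0.16 to 0.15, for brain over muscle Tap1 from -0.030 to 0.57, and for heart over muscle Cd74 from -0.084 to 0.37.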
